A study of Homo sapiens with 18 samples.

Results

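Heat shock was followed in SW620 cells, a human colon cancer line, in which the mitochondrial protease LONP1 had been silenced with siRNA. The members were chosen by group: the 3 libraries of HS siLonp1 (siRNA against Lonp1, 1 h at 42 °C) and the 3 of Ctrl siLonp1 (the same siRNA, cells kept at 37 °C), which are 6 of the 18 libraries of the series. The other 12 hold Ctrl scramble and HS scramble (a scrambled siRNA at the same temperatures), and HS+REC siLonp1 and HS+REC scramble (1 h at 42 °C, then 1 h of recovery at 37 °C), with 3 libraries each. The labels number the replicates without saying whether they were separate cultures, while the authors' methods call them biological replicates, independent of each other. Each p-value measures the spread between these samples. The values are the deposited counts of reads per gene symbol, and the 6 libraries total between 38838617 and 40920743 counts. Levels are given as CPM, counts scaled to the size of the library, and 1 CPM stands for 38.1 to 40.6 counts in the 6 libraries. The filter of CPM above 1 in at least 3 of the 6 libraries kept 12367 of 26485 symbols, and 7240 symbols had no count in any of the 6. The labels name no spike-in, so each change is relative to the composition of its library. Neither the number of cells nor the amount of RNA per cell can be read from these values.

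A rise in temperature unfolds proteins and frees the transcription factor HSF1 from chaperones, after which HSF1 drives the genes of heat shock proteins. At the same time cells slow the transcription of many other genes, and RNAs that turn over fast fall first when their synthesis stops. LONP1 is an ATP-dependent protease of the mitochondrial matrix that removes damaged and misfolded proteins there and also binds mitochondrial DNA.

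LONP1 itself was low in all siLonp1 libraries and fell further with heat. The Ctrl scramble libraries held 223, 225 and 215 CPM, those of HS scramble 219, 227 and 197 CPM and those of Ctrl siLonp1 19.3, 22.4 and 19.4 CPM. In HS siLonp1 it stood at 11.8, 11.5 and 11.8 CPM, below every Ctrl siLonp1 library, and in HS+REC siLonp1 at 27.2, 25.6 and 28.9 CPM. The knockdown that the labels state was thus present in every siLonp1 library, with no overlap between the siRNA groups. Between Ctrl siLonp1 and HS siLonp1, LONP1 fell to 57.5% of its level (log2 fold change -0.80, adjusted p = 2.97e-08, edgeR quasi-likelihood test, called the QL test from here on), with 3 of 3 heated libraries lower. In scramble cells the same test gave -0.043 (adjusted p = 0.666), and the test of the difference between the arms, the interaction, gave -0.76 (adjusted p = 0.000482). The LONP1 gene lies at chr19:5691834-5720572 on the minus strand of hg38 and overlaps RPL36 on the other strand. HSF1 stood at 75.1, 79.6 and 69.8 CPM in Ctrl siLonp1 and at 71.5, 72.3 and 70.5 CPM in HS siLonp1, ranges that overlap, and its change of -0.067 did not pass the QL test (adjusted p = 0.474).

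The libraries carried epithelial genes, while the intestinal markers were mixed in level. Marker sums are given here as CPM from library totals alone, without TMM factors. Of 14 intestinal epithelial markers, 9 passed the filter, and the summed level of all 14 ran from 10500 to 11800 CPM over the 6 libraries, led by the keratin KRT8 at a mean of 5510 CPM in Ctrl siLonp1 and 6040 in HS siLonp1. KRT18 and KRT19 followed at means of 3000 and 1170 CPM in Ctrl siLonp1, so the sum rests mainly on keratins. VIL1 stood at 340 and HNF4A at 106 CPM there, while CDH17 passed the filter at only 1.18 CPM. The homeobox factor CDX1 had no count in the 6 libraries, and KRT20, LGALS4, GPA33 and CEACAM5 stayed under the filter. Of 9 fibroblast markers 3 passed, with a summed level of 24.2 to 30.5 CPM led by COL1A1 (mean 9.71 CPM in Ctrl siLonp1 and 15.9 in HS siLonp1), and COL3A1 and FAP had no count. Of 9 immune markers 3 passed, at 16.9 to 22.9 CPM in sum and led by the lysosomal CD68, with CD3E at 0, and of 6 endothelial markers none passed, with a sum of 0.917 to 1.54 CPM, VWF on top and KDR and CLDN5 at 0. CDX2, a homeobox factor of intestinal cells, fell from 14.5, 16.7 and 15.8 CPM to 9.99, 9.996 and 9.96 CPM (-0.65, QL test, adjusted p = 5.83e-06), and COL1A1 rose from 10.1, 9.92 and 8.95 to 13.3, 17.3 and 18.7 CPM (0.77, adjusted p = 4.25e-06). The other 2 fibroblast markers tested, LUM and PDGFRB, had negative changes of -0.26 and -0.38 that did not pass (adjusted p = 0.0502 and 0.0904). CD14, the immune marker called raised, named after its values were seen, went from 0.456, 0.246 and 0.432 CPM to 1.26, 1.55 and 1.74 CPM (1.998, adjusted p = 2.58e-06). CD14 lay below 1 CPM in every Ctrl siLonp1 library and passed the filter through HS siLonp1 alone, so its rise is a description only. KRT8 and KRT18, neighbours on opposite strands of chromosome 12, rose by 0.18 and 0.20 on the log2 scale, calls that depend on single libraries and on the scaling. Under library size scaling the adjusted p was 0.095 for KRT8 and 0.0708 for KRT18. For KRT8 the adjusted p was 0.0836 without Ctrl siLonp1 replicate 2, 0.0963 without Ctrl siLonp1 replicate 3, 0.0873 without HS siLonp1 replicate 1 and 0.0574 without HS siLonp1 replicate 3, and for KRT18 it was 0.064, 0.0802 and 0.0791 without Ctrl siLonp1 replicate 2, Ctrl siLonp1 replicate 3 and HS siLonp1 replicate 1. SW620 is a cultured line and not a tissue with several cell types, so these markers describe genes expressed in the cultures. The presence of other cells was not tested.

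Heat lowered fewer genes past a fold change of 2 than it raised, and the largest rises, among them those of HSPA1A and HSPA1B, exceeded the largest falls. Of the 12367 genes tested, 134 (1.08%) were lowered and 375 (3.03%) raised past FDR 0.05 with a fold change above 2, the 2 conditions of a call here. At any fold, 2761 genes (22.3%) were lowered and 2546 (20.6%) raised past FDR 0.05, a near balance that depends on the scaling, with 3420 lowered and 2067 raised under library size scaling. The 134 lowered genes had a median log2 fold change of -1.28, from -3.09 to -1, and 11 of them fell by more than 4-fold. Their level in Ctrl siLonp1 had a median of 16 CPM, from 1.21 to 554 CPM, and 34 of them were under 5 CPM. In all 134 every HS siLonp1 library was below every Ctrl siLonp1 library, as in 3490 of all genes tested. Summed over the 134 genes, the level fell from between 5373 and 5500 CPM in Ctrl siLonp1 to between 2140 and 2210 CPM in HS siLonp1, while the 375 raised genes went from 15580–15820 CPM to 64020–66950 CPM in sum. When each of the 12 Ctrl and HS libraries was left out in turn, 118 of the 134 genes were called lowered all 12 times.

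**Figure D1:**
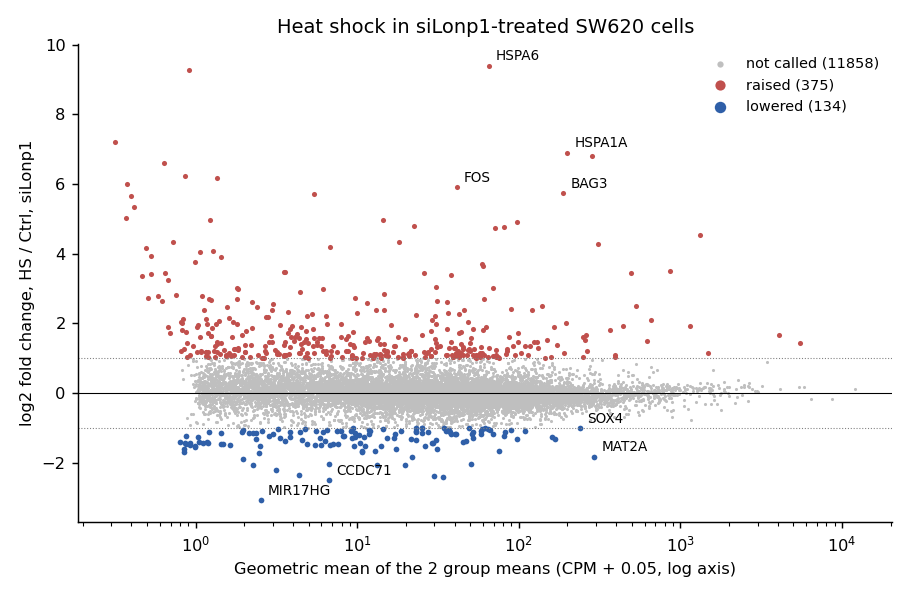
Each point is 1 of the 12367 genes, with its level on the horizontal axis (geometric mean of both group means in CPM, log axis) and the log2 fold change of HS siLonp1 over Ctrl siLonp1 on the vertical axis. The 134 lowered genes (blue) reach -3.09 and the 375 raised genes (red) reach 9.4.

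The gene lowered most was MIR17HG, the host transcript of a microRNA cluster that drives proliferation. It stood at 6.78, 7.46 and 7.20 CPM in Ctrl siLonp1 and at 1.13, 0.656 and 0.729 CPM in HS siLonp1, which left 11.8% of its level (log2 fold change -3.09 ± 0.23 SE, QL test, adjusted p = 1.26e-10). CCDC71 went from 15.9, 15.7 and 15.8 CPM to 3.18, 2.54 and 2.64 CPM (-2.50 ± 0.16, adjusted p = 9.63e-12), and its replicates were closer to each other than those of MIR17HG in relative terms. C15orf39 went from 81.4, 82.8 and 69.8 CPM to 13.4, 14.9 and 15.5 CPM (-2.42 ± 0.15, adjusted p = 5.43e-12). SLC16A6, of the monocarboxylate transporter family, went from 71.99, 61.6 and 70.03 CPM to 14.02, 12.1 and 13.02 CPM (-2.38 ± 0.18, adjusted p = 1.66e-10). These 4 genes kept between 11.8% and 19.2% of their level. In each of them all HS siLonp1 libraries lay below all Ctrl siLonp1 libraries, as the rule that named the leading genes required.

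Genes of several functions followed. GPR183, a receptor for oxysterols that steers immune cells, went from 10.4, 8.92 and 10.04 CPM to 2.39, 1.60 and 1.71 CPM (-2.37 ± 0.17, QL test, adjusted p = 1.32e-10). FJX1, a secreted glycoprotein, went from 27.8, 25.9 and 28.1 CPM to 7.68, 5.54 and 6.13 CPM (-2.08 ± 0.11, adjusted p = 6.23e-13). TIGD5, derived from a transposable element, went from 6.07, 6.48 and 7.32 CPM to 1.52, 1.47 and 1.28 CPM (-2.22 ± 0.21, adjusted p = 9.25e-09), and it overlaps EEF1D and PYCR3 on the other strand. HPS6 is a subunit of a complex that builds lysosome-related organelles, and AP5B1 is a subunit of an adaptor complex of late endosomes. HPS6 went from 42.3, 39.6 and 38.3 CPM to 9.14, 9.42 and 10.2 CPM (-2.06 ± 0.11, adjusted p = 6.23e-13). AP5B1 went from 40.9, 43.6 and 37.9 CPM to 10.2, 12.2 and 12.02 CPM (-1.83 ± 0.12, adjusted p = 2.76e-11).

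RAI1 and GEMIN4 were also among the leading genes. RAI1, a nuclear protein whose dosage matters in development, went from 106, 109 and 95.8 CPM to 22.5, 26.4 and 26.05 CPM (-2.05 ± 0.094, QL test, adjusted p = 3.28e-14), and it overlaps SREBF1 on the other strand. ZBTB45, a zinc finger protein with a BTB domain, went from 13.3, 13.8 and 13.02 CPM to 3.26, 3.10 and 3.44 CPM (-2.03 ± 0.13, adjusted p = 6.27e-12). GEMIN4 is part of the SMN complex, which loads spliceosomal RNAs with their core proteins. It went from 139.7, 129 and 136 CPM to 43.4, 42.9 and 41.7 CPM (-1.66 ± 0.075, adjusted p = 1.99e-14). DOLK, the kinase that makes the dolichol phosphate of N-glycosylation, went from 22.8, 23.6 and 21.7 CPM to 6.93, 6.77 and 7.84 CPM (-1.66 ± 0.096, adjusted p = 2.11e-12). TSKU, a secreted leucine-rich repeat protein that binds growth factors, went from 19.8, 19.8 and 17.6 CPM to 5.73, 6.09 and 5.93 CPM (-1.69 ± 0.11, adjusted p = 1.54e-11). In all of these the gap between the groups exceeded the range within either group.

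**Figure D2:**
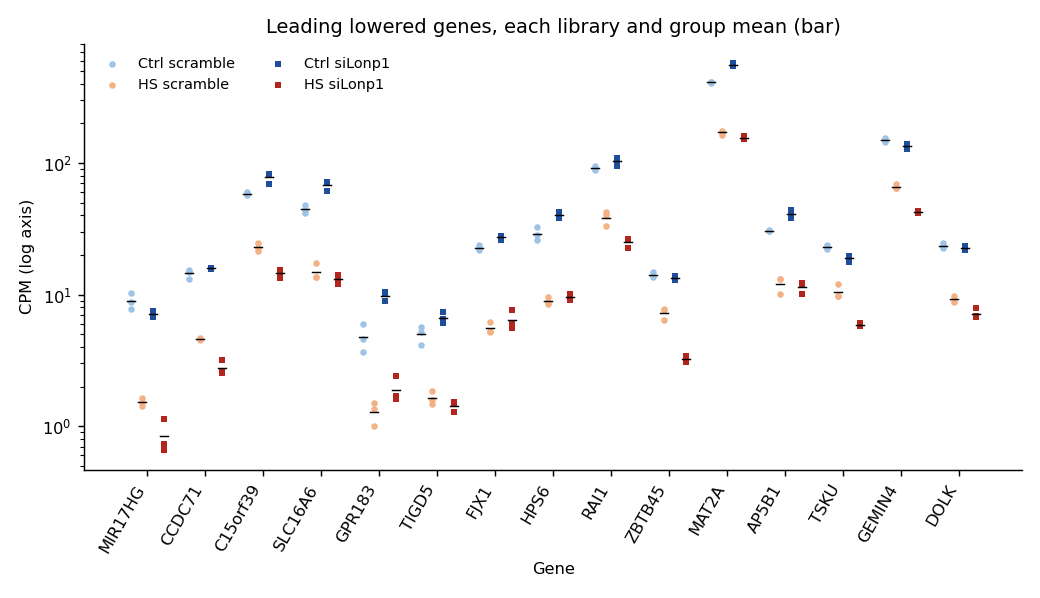
Each point is the level of a gene in 1 library (CPM, log axis) and each bar the mean of 3 libraries, for the 15 leading lowered genes. In every gene the HS siLonp1 libraries (red squares) lie below the Ctrl siLonp1 libraries (blue squares), as the rule that chose the genes required. Circles give the scramble libraries.

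The 5 lowered genes with the highest CPM, a measure that does not correct for transcript length, were MAT2A, SOX4, FUT4, TNS4 and NTSR1. MAT2A, the enzyme that makes S-adenosylmethionine in most tissues, went from 544, 547 and 572 CPM to 159.6, 152 and 153 CPM (-1.84 ± 0.10, QL test, adjusted p = 1.55e-12). SOX4, a transcription factor of progenitor cells and many carcinomas, went from 335, 327 and 353 CPM to 157, 174 and 173 CPM (-1.01 ± 0.098, adjusted p = 1.37e-08). SOX4 lies at the fold limit and depends on single libraries for its call. Its log2 fold change was -0.965 without HS siLonp1 replicate 1, -0.969 without Ctrl siLonp1 replicate 3 and -0.999 without any 1 of the 6 Ctrl and HS scramble libraries, short of the limit of -1 each time. FUT4, a fucosyltransferase that makes Lewis antigens, went from 272, 258 and 267 CPM to 103, 112 and 105 CPM (-1.32 ± 0.11, adjusted p = 9.36e-10). TNS4, a tensin of cell adhesions, went from 251, 271 and 223 CPM to 92.3, 108 and 107 CPM (-1.28 ± 0.12, adjusted p = 6.84e-09). NTSR1, the receptor of the gut peptide neurotensin, went from 167, 166 and 148 CPM to 75.95, 81.9 and 67.1 CPM (-1.09 ± 0.087, adjusted p = 5.4e-10). FUT4 lies within PIWIL4 on the same strand, and MAT2A overlaps GGCX on the other strand.

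Further members of the 134 are given as single examples, named after their values were seen. EXOSC6 of the RNA exosome fell by 1.30 on the log2 scale, RPP25 of RNase P and RNase MRP fell by 1.17, the mitochondrial RNA helicase DDX28 fell by 1.37, and GEMIN7 of the SMN complex fell by 1.20. In EXOSC6 the libraries went from 79.5, 80.2 and 84.5 CPM to 32.2, 34.6 and 32.8 CPM (QL test, adjusted p = 9.72e-13). The cytokine IL10 went from 3.67, 3.45 and 3.92 CPM to 1.05, 0.892 and 1.01 CPM, and NOD2, a sensor of bacterial cell walls, from 4.12, 4.41 and 3.92 to 1.26, 1.60 and 1.48 CPM. The synaptic adhesion genes LRFN1, LRFN3 and LRFN4 fell by 1.72, 1.52 and 1.14. The phosphatase CDC25A, which releases CDK2 at the entry into S phase, went from 98.6, 92.2 and 98.4 CPM to 43.7, 47.5 and 46.1 CPM (-1.07, adjusted p = 1.17e-11). CENPB, which binds centromeric satellite DNA, went from 160.5, 154 and 149.9 CPM to 60.2, 64.9 and 60.7 CPM (-1.32, adjusted p = 6.1e-11).

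Of 32 symbols of small nucleolar RNAs tested, 8 (25%) were called lowered and 6 (18.8%) raised, against 1.08% and 3.03% of all genes tested. A gene near 1 CPM can pass the filter through the group where it is high alone, as SNORD22 did through Ctrl siLonp1. This can raise both shares, which are therefore a description only. The 8 lowered, all at low counts, were SNORD10, SNORD22, SNORD29, SNORD31, SNORD47, SNORD110, SNORA32 and SNORA61, and SNORD31 was the one with the highest level, at 2.63, 2.68 and 2.62 CPM in Ctrl siLonp1 and 0.796, 0.866 and 1.16 CPM in HS siLonp1. SNORD22 lies within the host gene SNHG1 and SNORA61 within SNHG12, on the same strand. SNORD22 fell from 1.80, 1.77 and 1.63 CPM to 0.385, 0.708 and 0.830 CPM, while SNHG1 rose from 120.2, 134 and 125 to 231, 199 and 211 CPM (0.76, QL test, adjusted p = 1.35e-08). How reads shared between a snoRNA and its host were counted is not given. The libraries were made for mRNA, so counts at these symbols are not read as levels of mature snoRNAs.

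The promoters of the 2 leading lowered and the 2 leading raised genes with an entry in the sequence table are shown because heat shock genes are known for repeats of the pentamer nGAAn before their start. They cover 250 bases before to 50 after the RefSeq start on GRCh38.p14, 5′ to 3′, and capitals mark matches to GAANNTTC or TTCNNGAA, each of which reads the same on both strands. MIR17HG is shown at chr13:91347437-91347736 and C15orf39 at chr15:75201632-75201931, both on the plus strand. HSPA1A is shown at chr6:31815293-31815592 and HSPA1B at chr6:31827488-31827787, both on the plus strand.
MIR17HG: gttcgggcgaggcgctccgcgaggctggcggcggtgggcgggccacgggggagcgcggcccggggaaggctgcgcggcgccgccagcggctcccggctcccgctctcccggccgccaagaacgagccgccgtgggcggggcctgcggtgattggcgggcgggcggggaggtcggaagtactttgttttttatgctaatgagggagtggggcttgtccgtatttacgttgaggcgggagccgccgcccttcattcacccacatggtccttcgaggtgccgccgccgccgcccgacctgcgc
C15orf39: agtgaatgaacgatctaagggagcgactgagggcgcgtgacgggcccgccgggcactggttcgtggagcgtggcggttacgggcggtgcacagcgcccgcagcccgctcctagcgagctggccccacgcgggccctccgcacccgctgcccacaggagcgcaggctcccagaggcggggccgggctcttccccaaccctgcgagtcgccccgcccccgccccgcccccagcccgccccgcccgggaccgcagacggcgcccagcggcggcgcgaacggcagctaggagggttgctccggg
HSPA1A: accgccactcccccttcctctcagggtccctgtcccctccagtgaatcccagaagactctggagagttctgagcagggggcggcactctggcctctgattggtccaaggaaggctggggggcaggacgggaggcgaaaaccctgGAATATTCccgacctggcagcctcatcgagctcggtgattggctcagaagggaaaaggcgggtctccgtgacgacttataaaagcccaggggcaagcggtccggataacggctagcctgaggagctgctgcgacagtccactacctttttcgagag
HSPA1B: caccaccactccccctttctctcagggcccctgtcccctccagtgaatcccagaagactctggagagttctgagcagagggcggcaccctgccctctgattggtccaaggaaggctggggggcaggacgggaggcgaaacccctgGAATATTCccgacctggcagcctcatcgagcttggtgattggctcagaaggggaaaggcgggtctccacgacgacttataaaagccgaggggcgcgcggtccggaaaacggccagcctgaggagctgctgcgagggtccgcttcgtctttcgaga
The window of MIR17HG and that of C15orf39 held no match to either motif, and those of HSPA1A and HSPA1B held 1 match to GAANNTTC each. GAANNTTC was present in 6.77% and TTCNNGAA in 7.74% of all 35116 promoters of the table, and in 4.36% and 5.83% of the 9958 that belong to genes tested. A match describes letters only, and no share is given over the lowered or raised genes because only 98 of 134 and 272 of 375 had an entry. The 4 promoters shown therefore say nothing of the other called genes.

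Lowered genes often had few exons. Of the 134 genes, 129 could be matched to GENCODE and 122 of these were protein-coding. Of the 122, 43 (35.2%) had their whole coding sequence in 1 exon, against 563 (4.86%) of all 11580 protein-coding genes tested. EXOSC6, DDX28, CENPB, RPP25, TIGD5, FJX1, HPS6, DOLK, SOX4 and FUT4 have a transcript of 1 exon in the annotation. The grouping by exons was chosen after the fold changes had been seen, GC content, transcript length and gene span were looked at as well, and no test was run on it.

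By the number of exons of the transcript, lowered genes were 12.2% of genes with 1 exon, 5.15% with 2, 1.76% with 3 to 4, 0.716% with 5 to 8, 0.372% with 9 to 16 and 0.397% with 17 or more. Raised genes were 10.1%, 10.5%, 5.74%, 2.77%, 1.76% and 0.674% of the same groups. By the number of exons with coding sequence, lowered genes were 7.64%, 4.32%, 0.942%, 0.612%, 0.421% and 0.335%, and raised genes 8.17%, 8.63%, 6.28%, 2.18%, 1.65% and 0.545%. Few exons thus went with calls in both directions. The median log2 fold change was -0.0643 for genes with 1 coding exon and -0.0163 for those with 17 or more. Genes with 1 coding exon went both ways, with 37.1% lowered and 24.5% raised past FDR 0.05 at any fold, against 22% and 16.9% with 17 or more.

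Other properties moved with exon number. The median GC content was 58% in lowered genes, 49.6% in raised genes and 48.6% in the others. Genes with 1 coding exon had a median of 15.5 CPM in Ctrl siLonp1 and those with 17 or more 45.8 CPM, and the median transcript length was 2761 and 5420 bases. Within 4 equal groups of the genes by CPM, from lowest to highest, lowered genes were 6.8%, 9.72%, 6% and 8.7% of those with 1 coding exon and 0.476%, 0.503%, 0.548% and 0.328% of those with 5 or more. Within 4 equal groups by GC content, from lowest to highest, they were 1.55%, 3.25%, 9.21% and 14.5% of those with 1 coding exon and 0.264%, 0.267%, 0.507% and 0.818% of those with 5 or more. The part of GC content, length and level in the calls was not tested beyond these values.

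**Figure D3:**
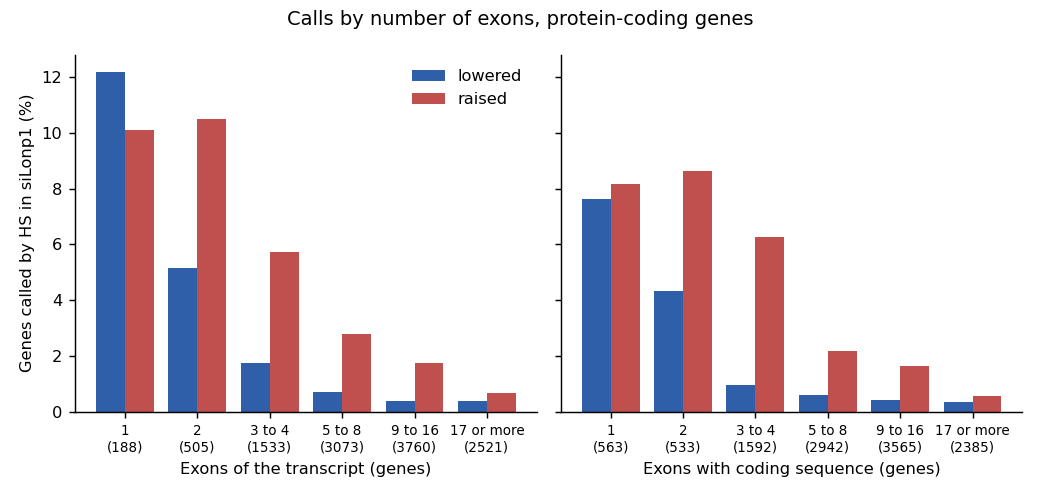
Bars give the share of protein-coding genes called lowered (blue) or raised (red) by HS in siLonp1 cells, grouped by exons of the transcript (left) and by exons with coding sequence (right), with the number of genes in brackets. Lowered genes go from 12.2% at 1 exon to 0.397% at 17 or more, and raised genes from 10.1% to 0.674%.

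The genes lowered in siLonp1 cells were lower in heated scramble cells as well. Of the 12367 genes, 38 (0.307%) were called lowered in scramble cells and 2178 (17.6%) were lowered at any fold. The 134 genes had a median log2 fold change of -0.786 in scramble cells, 134 of 134 were below 0, and 127 (94.8%) were lowered past FDR 0.05 at any fold. Called in both arms were 33 genes, which are 24.6% of the siLonp1 list and 86.8% of the scramble list. These shares depend on the filter, which rests on the siLonp1 libraries alone. Without a filter on low counts, 66 genes were called in both arms, of 210 in siLonp1 and 122 in scramble cells. The 134 were chosen for a large fall in the siLonp1 libraries, which alone makes a smaller median in scramble cells likely, so their scramble values stand here as a description. The 38 genes chosen in scramble cells had a median of -1.53 in siLonp1 and -1.29 in scramble cells. Among the 5 called in scramble alone, YWHAH, a 14-3-3 protein, fell by 1.04 in scramble and by 0.56 in siLonp1 cells (interaction, QL test, adjusted p = 0.000485), and the others were CHPF, RPL36A, SNORA70 and SNORD104, named after their values were seen.

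The test of the difference between the arms was passed by 178 genes (1.44%) with a lower HS effect in siLonp1 than in scramble cells and by 62 (0.501%) with a higher one. Among the 134 lowered genes, 35 passed it with a lower effect in siLonp1 (QL test). The fall in siLonp1 that chose the 134 is also 1 of the 2 terms of the interaction, so a surplus of negative values among them, 130 of 134, is partly built in. These counts rest on single libraries. The count of 178 was 101, 71 and 81 without Ctrl scramble replicates 1, 2 and 3 in turn, 73, 89 and 136 without Ctrl siLonp1 replicates 1, 2 and 3, 73, 122 and 99 without HS siLonp1 replicates 1, 2 and 3, and 67, 81 and 373 without HS scramble replicates 1, 2 and 3. HS scramble replicate 3 has the lowest total of the 18 libraries, 30815860 counts, and it differed from replicates 1 and 2 by a chi-square per degree of freedom of 15.2 and 18.9, against 4.05 between these 2. In HS siLonp1, replicate 1 differed from 2 and 3 by 14.2 and 13.1, against 3.48 between these 2. The count of 62 was 31 without Ctrl scramble replicate 2, 33 and 34 without Ctrl siLonp1 replicates 1 and 2, 37 without HS siLonp1 replicate 1, and 30, 39 and 163 without HS scramble replicates 1, 2 and 3. The count of 35 was 21 without Ctrl siLonp1 replicate 1 and 22 without HS scramble replicate 1.

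HMGA2, an architectural chromatin protein of embryonic and cancer cells, differed between the arms. Its level was 98.7, 90.7 and 98.4 CPM in Ctrl scramble, and HS scramble held 70.5, 70.4 and 66.4 CPM. The siLonp1 libraries held 46.97, 49.2 and 46.96 CPM in Ctrl and 17.5, 17.2 and 17.8 CPM in HS. The siLonp1 libraries were thus lower at both temperatures, and the HS effect was -1.45 in siLonp1 and -0.47 in scramble cells (interaction -0.97 ± 0.11 SE, QL test, adjusted p = 2.21e-05). STARD13 stood at 11.9, 11.1 and 11.3 and 8.58, 8.66 and 7.83 CPM in the scramble groups, and at 18.2, 16.8 and 16.2 and 6.37, 6.95 and 5.53 CPM in the siLonp1 groups (interaction -0.997 ± 0.13, adjusted p = 0.000199). DNAJC27, a small GTPase with a J domain, stood at 7.04, 6.78 and 6.91 and 6.01, 5.76 and 6.43 CPM in the scramble groups, and at 3.92, 5.59 and 6.001 and 1.90, 2.10 and 2.29 CPM in the siLonp1 groups. Its HS effect in scramble cells did not pass the test (-0.19, adjusted p = 0.253), and the interaction was -1.11 ± 0.20 (adjusted p = 0.00325).

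ZBTB45 and C15orf39 were the leading lowered genes with the largest difference between the arms. ZBTB45 had 14.9, 13.6 and 13.8 CPM in Ctrl scramble, while HS scramble had 7.61, 7.75 and 6.37 CPM, an effect of -0.95 (interaction -1.08 ± 0.17 SE, QL test, adjusted p = 0.00111). C15orf39 stood at 60.2, 57.9 and 56.7 CPM and 24.7, 22.5 and 21.5 CPM there, an effect of -1.35 (interaction -1.07 ± 0.20, adjusted p = 0.00578). RAI1 and GEMIN4 also passed, with interactions of -0.81 and -0.47 (adjusted p = 0.00135 and 0.0182), while for GEMIN4 the adjusted p was 0.0602 without Ctrl scramble replicate 3, 0.0591 without Ctrl siLonp1 replicate 1 and 0.065 without HS scramble replicate 1. CCDC71 and MAT2A passed by little (-0.85 and -0.58, adjusted p = 0.0482 and 0.039) and lost the call without any single one of the 12 Ctrl and HS libraries except HS scramble replicate 3. Their adjusted p then ran from 0.0586 to 0.127 for CCDC71 and from 0.0627 to 0.0958 for MAT2A. The mean of MAT2A was 554 CPM in Ctrl siLonp1 and 410 in Ctrl scramble, beside 155 in HS siLonp1 and 171 in HS scramble. The arms thus differed for MAT2A mainly in the level without heat. FJX1 had effects close to each other, -2.08 in siLonp1 and -2.03 in scramble cells (interaction -0.053 ± 0.16, adjusted p = 0.914). MIR17HG went from 7.74, 8.82 and 10.2 to 1.42, 1.64 and 1.52 CPM in scramble cells, and its interaction of -0.54 did not pass (adjusted p = 0.447).

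**Figure D4:**
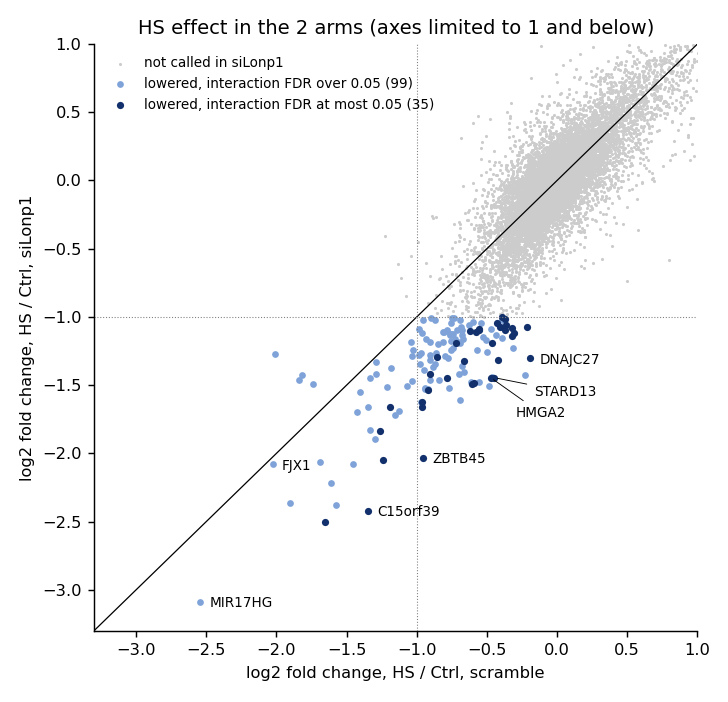
Each point is a gene, with its log2 fold change by HS in scramble cells on the horizontal axis and in siLonp1 cells on the vertical axis, and the line marks equal effects. The genes were chosen by their value on the vertical axis. The 35 past the interaction (dark blue) lie below the line, as DNAJC27 at -0.19 and -1.30, while FJX1 lies near it.

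After 1 h of recovery the lowered genes differed in level from gene to gene, described here without a test because HS+REC siLonp1 is set against the same Ctrl siLonp1 libraries. The 134 genes in sum stood at 2970 to 3661 CPM in HS+REC siLonp1, between the 2140 to 2210 CPM of HS siLonp1 and the 5373 to 5500 CPM of Ctrl siLonp1. Their median log2 fold change against Ctrl siLonp1 was -0.77 in HS+REC siLonp1, beside -1.28 in HS siLonp1, so the list as a whole was still below its level without heat. FJX1 was at 27.96, 29.04 and 32.8 CPM and SOX4 at 343, 379 and 443 CPM, within or above the values of Ctrl siLonp1. MIR17HG was at 4.29, 6.85 and 8.09 CPM, and CCDC71 at 12.7, 10.3 and 16.1 CPM. TSKU was at 6.84, 6.83 and 8.09 CPM, a little above each HS siLonp1 library, and TNS4 at 80.4, 77.1 and 99.7 CPM, a range that overlaps that of HS siLonp1. MAT2A was at 179, 213 and 281 CPM, below its values of 544, 547 and 572 CPM in Ctrl siLonp1. Replicate 3 of HS+REC siLonp1 had the highest sum of lowered genes and the lowest sum of raised genes of the 3, 67320 CPM against 81470 and 85530 CPM.

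The counts over gene lists that follow are descriptions without a test, and the lists were chosen with earlier results of these data known. Of 65 ribosome biogenesis factors tested, 37 (56.9%) were lowered past FDR 0.05 at any fold, 3 (4.62%) were raised and 25 had no call, with a median log2 fold change of -0.25, against 22.3% and 20.6% of all genes tested and a median of 0.0014. IMP3, of the small subunit processome, went from 60.96, 63.2 and 69.6 CPM to 36.5, 36.4 and 32.05 CPM (-0.89, QL test, adjusted p = 2.34e-08). MYBBP1A, a nucleolar regulator of ribosomal RNA synthesis, went from 181, 192 and 162 to 96.3, 110.2 and 105 CPM (-0.78, adjusted p = 2.18e-07). PPAN fell by 0.81 on the log2 scale from a mean of 6.08 CPM, and read-through transcripts with P2RY11 overlap it.

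The 2 lists of cell cycle genes each held more lowered than raised genes, and the difference between the lists was not tested. Of 37 genes of G1/S and DNA replication, 19 (51.4%) were lowered at any fold and 4 (10.8%) raised (median -0.21), against 22.3% and 20.6% of all genes tested. Of 40 genes of G2/M and mitosis 12 (30%) were lowered and 4 (10%) raised (median -0.06), the 4 becoming 2 without HS siLonp1 replicate 1. CCNE2, a cyclin E that starts S phase, went from 42.5, 44.9 and 46.7 CPM to 16.3, 14.3 and 15.9 CPM (-1.52, QL test, adjusted p = 1.22e-09). CHAF1A, which loads histones onto new DNA, went from 75.9, 83.2 and 74.8 to 43.5, 43.1 and 49.2 CPM (-0.78), and DBF4, the activator of the kinase CDC7, from 61.3, 68.5 and 64.6 to 38.7, 37.7 and 38.7 CPM (-0.76). Of the mitotic list, the cyclin CCNF fell by 0.68 and the kinesin KIF23 by 0.61, while FAM83D, a spindle protein, rose by 0.61.

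The lists of WNT targets and of SOX and HOX genes held more lowered than raised genes, while those of FOX and KLF genes held more raised ones. Of 26 WNT targets of colon cells, 12 (46.2%) were lowered at any fold and 4 (15.4%) raised (median -0.07), against 22.3% and 20.6% of all genes tested. LGR5, the receptor that marks intestinal stem cells, went from 54.9, 53 and 53.1 CPM to 23.8, 25.8 and 26.8 CPM (-1.07, QL test, adjusted p = 5.43e-09), with an interaction of -0.67 (adjusted p = 0.00971). SP5, a direct target of beta-catenin, went from 80.1, 86.5 and 86.8 CPM to 40.1, 43.8 and 39.02 CPM (-1.04, adjusted p = 9.78e-08). EPHB3, a guidance receptor of crypt cells, rose from 19.9, 18.7 and 16.7 to 39.8, 48.2 and 43.97 CPM. Of 8 SOX genes 5 (62.5%) were lowered and 1 (12.5%) raised (median -0.57). SOX2 fell by 0.65 and SOX9, a factor of crypt progenitors, by 0.58, and SOX9 stood at 0.20 in scramble cells (adjusted p = 0.129, interaction -0.78, adjusted p = 0.00486).

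Of 28 HOX genes 12 (42.9%) were lowered and 3 (10.7%) raised (median -0.25), against 22.3% and 20.6% of all genes tested. HOXA7 went from 26.3, 27.5 and 27.4 CPM to 11.6, 13.5 and 13.1 CPM and HOXA11 from 13.7, 12.1 and 14.04 to 6.62, 6.48 and 5.48 CPM, with log2 fold changes of -1.09 and -1.10 (QL test, adjusted p = 2.08e-11 and 5.83e-09). HOXC13 went the other way, from 14.3, 14.8 and 12.9 to 65.2, 67.3 and 62.9 CPM (2.22, adjusted p = 1.34e-15), and so did its antisense HOXC13-AS, from 1.95, 1.87 and 2.21 to 8.01, 6.66 and 6.71 CPM. Of 20 genes of the unfolded protein response of the endoplasmic reticulum, 7 (35%) were lowered and 3 (15%) raised (median -0.03). SYVN1, a ubiquitin ligase of that organelle, fell by 0.80, while HERPUD1, its partner in protein degradation, rose from 34.7, 42.7 and 41.1 to 85.7, 80.6 and 78.5 CPM (1.05, interaction 0.75, adjusted p = 0.000536). In scramble cells HERPUD1 went from 67.1, 71.2 and 68.1 to 85, 81.96 and 87.2 CPM, so the arms differed mainly in the level without heat. ERN1, the sensor IRE1, rose by 0.84. SYVN1 overlaps FAU on the same strand.

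**Figure D5:**
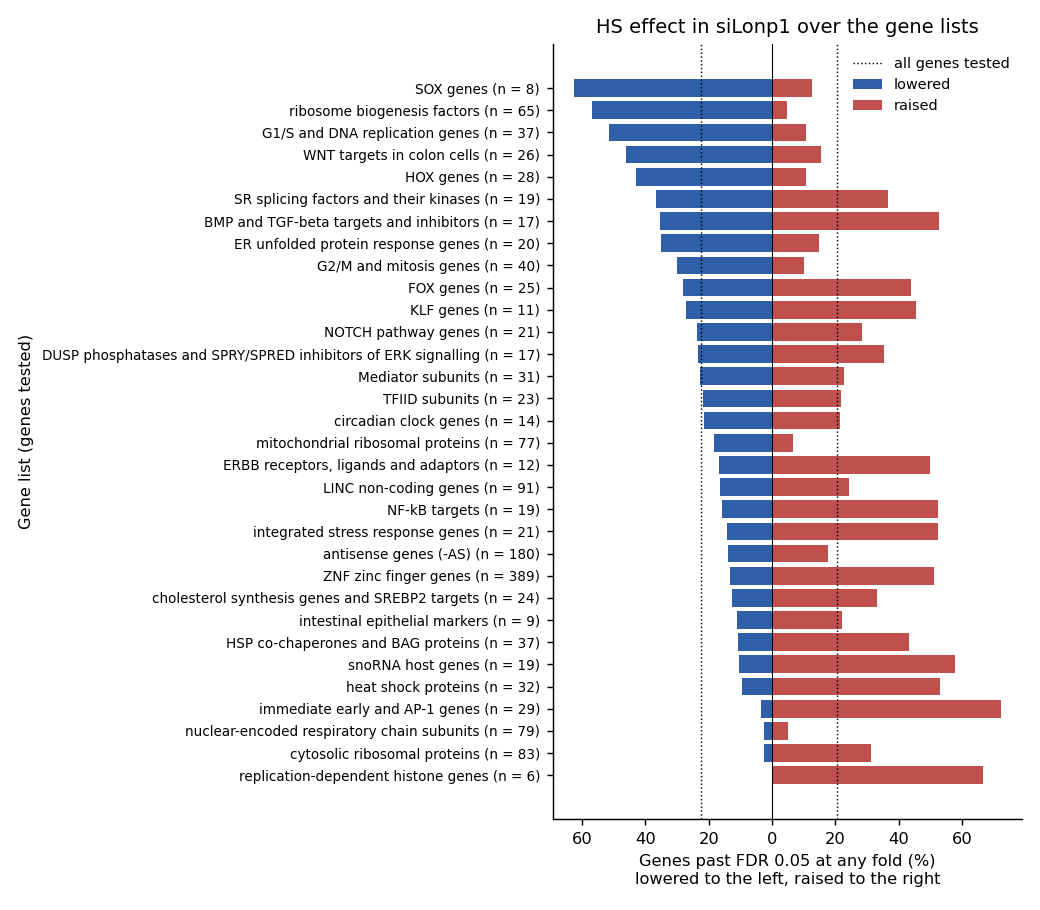
Bars give, for each list with at least 5 genes tested, the share lowered (blue, to the left) and raised (red, to the right) by HS in siLonp1 cells past FDR 0.05 at any fold, and dotted lines give 22.3% and 20.6% for all genes. Ribosome biogenesis factors reach 56.9% lowered, and immediate early genes 72.4% raised.

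The 2 genes with the largest rises by the rule for named genes were chaperones. Of 32 heat shock proteins tested 17 (53.1%) were raised at any fold and 3 (9.38%) lowered, the 3 becoming 1 without Ctrl siLonp1 replicate 1 or 2. Of 37 co-chaperones and BAG proteins 16 (43.2%) were raised and 4 (10.8%) lowered, against 20.6% raised and 22.3% lowered of all genes tested. HSPA1A went from 17.5, 18.7 and 18.3 CPM to 2120, 2078 and 2345 CPM (6.91 ± 0.11 SE, QL test, adjusted p = 2.03e-22), and HSPA1B from 26.95, 26.99 and 27.1 to 2904, 3001 and 3125 CPM (6.80 ± 0.14). These are near-identical genes, so reads may have been shared between them. BAG3, a nucleotide exchange factor of HSP70, went from 24.1, 28.5 and 24.9 CPM to 1366, 1363 and 1389 CPM (5.73 ± 0.11, adjusted p = 1.05e-21). DNAJA4, a J protein that partners HSP70, went from 17.6, 18.6 and 17.2 CPM to 535, 537 and 543 CPM (4.92 ± 0.084, adjusted p = 2.04e-22). HSPA6, an HSP70 nearly silent without stress, went from 3.11, 1.995 and 2.31 CPM to 1673, 1642 and 1702 CPM, and DNAJB4 rose by 4.80 on the log2 scale. DNAJB4 overlaps GIPC2 on the same strand.

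The lists of immediate early genes and of the integrated stress response held more raised than lowered genes, against 20.6% raised and 22.3% lowered of all genes tested. Of 29 immediate early and AP-1 genes 21 (72.4%) were raised and 1 (3.45%) lowered, IER3, named after its values were seen (2 lowered without Ctrl siLonp1 replicate 1 or HS siLonp1 replicate 1). FOS went from 5.82, 4.97 and 5.06 CPM to 304, 331 and 320.5 CPM (5.91 ± 0.13 SE, QL test, adjusted p = 4.18e-20), EGR2 rose by 4.97 and EGR1 by 4.27. Of 21 genes of the integrated stress response 11 (52.4%) were raised, 3 (14.3%) lowered and 7 had no call. DDIT4, an inhibitor of mTORC1, went from 10.9, 15.6 and 14.9 to 399, 355 and 348 CPM, CHAC1, which degrades glutathione, from 3.47, 4.75 and 3.89 to 89.9, 73.99 and 79.1 CPM, and SESN2, an inhibitor of mTORC1, from 5.01, 4.63 and 6.71 to 39.7, 38.3 and 38.7 CPM. CHAC1 and SESN2 had a higher HS effect in siLonp1 than in scramble cells (interactions 1.09 and 0.84, adjusted p = 0.00519 and 0.00544). SESN2 went from 11.4, 10.5 and 11.5 to 48.8, 46.04 and 37.8 CPM in scramble cells, so its siLonp1 level was lower without heat and not higher with heat. CHAC1 went from 6.74, 6.30 and 5.97 to 65.3, 57.8 and 56.1 CPM there, so its siLonp1 mean was lower without heat and higher with heat. Of 19 SR splicing factors and their kinases 7 (36.8%) were raised and 7 (36.8%) lowered (median -0.07). The kinases CLK1, CLK4 and CLK3 rose by 3.03, 2.73 and 1.33, and CLK4 passed the interaction (0.72, adjusted p = 0.00657), with means of 3.76 and 24.8 CPM in the siLonp1 groups and 5.45 and 21.8 CPM in the scramble groups.

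Zinc finger genes formed the largest list. Of 389 ZNF genes tested 199 (51.2%) were raised at any fold and 52 (13.4%) lowered (median 0.24), against 20.6% and 22.3% of all genes tested. ZNF436, ZNF473 and ZNF10 rose by 1.94, 1.90 and 1.64, and ZNF10 overlaps another protein-coding entry on the same strand. Of 19 snoRNA host genes 11 (57.9%) were raised and 2 (10.5%) lowered (1 lowered without Ctrl siLonp1 replicate 3, HS siLonp1 replicate 2 or HS siLonp1 replicate 3), with SNHG17 going from 54.6, 51.7 and 50.6 CPM to 112, 109 and 97.6 CPM (1.02, QL test, adjusted p = 9.63e-12) and SNHG12 from 5.92, 6.16 and 6.79 to 13.8, 11.2 and 12.3 CPM. Of 73 replication-dependent histone genes in the count table only 6 passed the filter, so these do not stand for the family. Of the 6 tested 4 (66.7%) were raised, among them HIST1H2BD (1.94) and HIST1H2BK (0.44). Of 25 FOX genes 11 (44%) were raised and 7 (28%) lowered, with FOXA3 rising by 1.33 and FOXL2 going from 8.40, 8.47 and 10.1 to 4.57, 4.12 and 3.72 CPM (-1.12, interaction -0.81, adjusted p = 0.00964). Of 11 KLF genes 5 (45.5%) were raised and 3 (27.3%) lowered, with KLF10 rising by 1.60, KLF5 by 0.40, and KLF16 falling by 0.46.

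Signalling pathways held genes of both directions. Of 17 DUSP phosphatases and SPRY or SPRED inhibitors of ERK signalling, 6 (35.3%) were raised and 4 (23.5%) lowered, against 20.6% and 22.3% of all genes tested. DUSP1 and SPRY4 rose by 3.03 and 1.71, while SPRY1 went from 29.9, 28.3 and 32.6 CPM to 9.55, 10.3 and 9.68 CPM (-1.62, QL test, adjusted p = 3.62e-10). Of 17 BMP and TGF-beta targets and inhibitors 9 (52.9%) were raised and 6 (35.3%) lowered, with TGFBR3, ID1 and SMAD7 rising by 1.35, 1.15 and 1.10. Of 21 NOTCH pathway genes 6 (28.6%) were raised and 5 (23.8%) lowered. LFNG, a glycosyltransferase that modifies NOTCH, went from 25.3, 21.8 and 24.4 CPM to 7.96, 8.84 and 7.89 CPM (-1.53, adjusted p = 1.13e-11), the ligand JAG2 fell by 0.59 and the ligand DLL4 rose by 1.54. Of 12 ERBB receptors, ligands and adaptors 6 (50%) were raised and 2 (16.7%) lowered, the ligands HBEGF and EREG rising by 1.02 and 0.98 and the adaptor GRB7 by 0.77. Of 19 NF-kB targets 10 (52.6%) were raised and 3 (15.8%) lowered (1 lowered without Ctrl siLonp1 replicate 1, Ctrl siLonp1 replicate 2 or HS siLonp1 replicate 2), with the chemokines CCL20 and CXCL8 rising by 2.39 and 1.29 and the receptor CXCR4 by 1.65.

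The lists of mitochondrial and cytosolic ribosomal proteins and of the respiratory chain gave counts that depend on single libraries and on the settings. Of 77 mitochondrial ribosomal proteins 14 (18.2%) were lowered and 5 (6.49%) raised (median -0.04), against 22.3% and 20.6% of all genes tested. The 14 became 8 without Ctrl siLonp1 replicate 1 or 3 and 6 without HS siLonp1 replicate 2 or 3, and the 5 became 3 without Ctrl siLonp1 replicate 1 and 2 without HS siLonp1 replicate 1. Under library size scaling 23 were lowered and 3 raised, and at FDR 0.01 5 and 2. MRPL18 stood apart, rising from 99.6, 96.2 and 96.9 CPM to 428, 363 and 383 CPM (2.004, QL test, adjusted p = 1.14e-14), MRPS6 rose by 0.73, and MRPL17 fell by 0.48. MRPS6 overlaps the protein-coding SLC5A3 on the same strand. Of 83 cytosolic ribosomal proteins 26 (31.3%) were raised and 2 (2.41%) lowered (median 0.15), and the 26 became 17, 14 and 12 without Ctrl siLonp1 replicates 1, 2 and 3, 4 without HS siLonp1 replicate 1 and 41 without HS scramble replicate 3. It was 8 under library size scaling, 48 with only the 6 libraries and 6 at FDR 0.01. RPLP1 and RPS12 rose by 0.27 and 0.27, with an adjusted p for RPLP1 of 0.0576 without Ctrl siLonp1 replicate 3 and 0.103 without HS siLonp1 replicate 1, and RPL7L1, a paralogue that the name pattern caught and that acts in ribosome assembly, fell by 0.54. Of 79 nuclear-encoded subunits of the respiratory chain 4 (5.06%) were raised and 2 (2.53%) lowered. The 4 became 1 without HS siLonp1 replicate 1, 2 without Ctrl siLonp1 replicate 2 or HS siLonp1 replicate 3 and 9 without HS scramble replicate 3, and the 2 became 1 without Ctrl scramble replicate 3, Ctrl siLonp1 replicate 1 or 3, or HS siLonp1 replicate 2 or 3. Over the other settings the 4 ran from 1 to 13 and the 2 from 1 to 4. NDUFB9 rose by 0.23 and NDUFV3 fell by 0.35, while UQCRB rose by 0.24, with an adjusted p of 0.0695 without Ctrl siLonp1 replicate 1, 0.122 without HS siLonp1 replicate 1 0.063 without HS siLonp1 replicate 3 and 0.0668 under library size scaling.

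Over all genes tested 20.6% were raised and 22.3% lowered, beside which the remaining lists are set. Of 31 Mediator subunits 7 (22.6%) were raised and 7 (22.6%) lowered, with MED26, MED18 and MED13 rising by 1.19, 0.78 and 0.68. MED26 overlaps other protein-coding entries on the same strand. Of 23 genes that match the names of TFIID subunits 5 (21.7%) were raised and 5 (21.7%) lowered, with TAF7 going from 82.9, 80.8 and 86.99 CPM to 218, 189 and 204 CPM (1.29, interaction 0.49, QL test, adjusted p = 0.0114, and 0.0504 without HS scramble replicate 1). TAF1A and TAF1D, which rose by 0.61 and 0.61, serve RNA polymerase I and not TFIID. Of 24 cholesterol synthesis genes and SREBP2 targets 8 (33.3%) were raised and 3 (12.5%) lowered, the 8 becoming 5 without Ctrl siLonp1 replicate 2 or HS siLonp1 replicate 3, with INSIG1 and MSMO1 rising by 0.60 and 0.50 and SQLE falling by 0.44. Of 14 circadian clock genes 3 (21.4%) were raised and 3 (21.4%) lowered, the raised becoming 6 without HS siLonp1 replicate 1, with BHLHE40 rising by 0.80, CRY1 falling by 0.40 and NR1D1 going from 31.6, 35.7 and 29.3 to 22.03, 25.5 and 21.6 CPM (-0.48, adjusted p = 0.00622, and 0.0519 without Ctrl siLonp1 replicate 2). Of 91 LINC genes 22 (24.2%) were raised and 15 (16.5%) lowered (8 lowered without Ctrl siLonp1 replicate 1 or 3), with LINC01000 rising by 0.71 and LINC01296 and LINC00094 falling by 0.67 and 0.63. The annotation used here lists LINC01296 as a transcribed pseudogene and LINC00094 as protein-coding, and it holds no match for LINC01000. Of 180 antisense genes 32 (17.8%) were raised and 25 (13.9%) lowered, with GAS6-AS2 rising by 1.73. No value is given for HNRNPU-AS1, which the annotation used here matches to a protein-coding gene. The medians of the NOTCH, FOX, LINC and Mediator lists were within 0.05 of 0 and changed sign when libraries were scaled by their totals alone. Of 9 intestinal markers 2 were raised and 1 lowered, the 2 becoming none without Ctrl siLonp1 replicate 2, Ctrl siLonp1 replicate 3 or HS siLonp1 replicate 1 and 1 without HS siLonp1 replicate 3. Of 3 fibroblast markers 1 was raised, and 1 was also lowered without HS siLonp1 replicate 1, without Ctrl siLonp1 replicate 1 or 2, and without HS scramble replicate 2 or 3. Of 3 immune markers 1 was raised, becoming 2 without Ctrl siLonp1 replicate 2 or HS siLonp1 replicate 3. The 1 raised, CD14, passed the filter through HS siLonp1 alone.

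At the edge of the filter, NHLH1 and SLC15A2 were kept with 1.0019 CPM each in the library that ranks at 3 of 6, and LINC00431 and CATSPER2P1 were left out at 0.9942 CPM each. The log2 fold changes of the kept pair were 0.98 and -0.03.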

How the data were processed

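RNA sequencing of SW620 cells was taken from the deposited raw counts, made by the authors from stranded mRNA libraries read as paired ends, with STAR 2.7.3a on hg38, featureCounts, R 3.6.3 and edgeR. The count table holds counts of reads per gene as deposited by the authors, for 26485 symbols and 18 libraries (6 groups of 3). The strand setting, the handling of reads with several positions and of duplicates are not given in the sources used here.

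Here edgeR 4.0.16 with limma 3.58.1 in R 4.3.3 fitted 1 mean per group over all 18 libraries (quasi-likelihood test, TMM factors, prior count 0.125 for fold changes). P-values were adjusted by Benjamini-Hochberg over the genes kept. Genes with CPM above 1 in at least 3 of the 6 libraries of Ctrl siLonp1 and HS siLonp1 were kept. A gene was called at FDR at most 0.05 with a fold change above 2, and gene lists were also counted at any fold. The interaction is the HS effect in siLonp1 less that in scramble. The 6 libraries total 38838617 to 40920743 counts, and their replicates differed within a group by a chi-square per degree of freedom of 3.48 to 14.2 (up to 25.8 over the 18 libraries), so spread between samples exceeds counting error. Gene structures came from GENCODE release 44 and promoters from RefSeq on GRCh38.p14.

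The rule for named genes was written before the files were read, but with earlier results of these data known, as were the libraries compared and the 35 gene lists: the 15 called lowered genes with the most negative change, a mean of at least 5 CPM in Ctrl siLonp1 and groups apart; the 5 called lowered genes with the highest mean CPM in Ctrl siLonp1; the 5 called raised genes with the largest change, at least 5 CPM and groups apart; up to 5 lowered genes with the most negative interaction past FDR 0.05; up to 3 genes of each list with the largest absolute change past FDR 0.05 and at least 5 CPM in either group; LONP1 and HSF1; the 2 genes nearest the filter on each side; and promoters of the first 2 lowered and first 2 raised genes with an entry and not on chromosome 8. A gene named by 2 parts counts under both.

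Alternatives were RLE and library size scaling, other filters, DESeq2 1.42.0, only 6 or 12 libraries, a replicate block, a prior count of 2, FDR 0.01, a fold change of 1.5 or none, and each Ctrl and HS library left out in turn.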

Additional observations from a re-analysis of the deposited data

Results flagged for a closer look

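The values below are differences between the HS effect in siLonp1 and in scramble cells that passed the interaction test at FDR 0.05 (edgeR quasi-likelihood test), on the log2 scale. A negative value means a lower HS effect in siLonp1 cells. Of all genes tested, 178 had a lower and 62 a higher HS effect in siLonp1 cells.

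Among the lowered genes the difference was -0.847 for CCDC71, -1.07 for C15orf39, -0.808 for RAI1, -1.08 for ZBTB45, -0.576 for MAT2A and -0.468 for GEMIN4. It was -1.11 for DNAJC27, -0.997 for STARD13, -0.972 for HMGA2 and -0.756 for LONP1 itself.

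Among members of the gene lists, lower HS effects in siLonp1 cells were found for EGR1 (-0.599), ID1 (-0.532), LFNG (-0.613), LGR5 (-0.669), SP5 (-0.614), CCNF (-0.448) and MYBBP1A (-0.529). They were also found for NR1D1 (-0.875), HOXA11 (-0.546), HOXA7 (-0.532), SOX9 (-0.783) and FOXL2 (-0.812). Higher HS effects were found for TGFBR3 (0.758), CHAC1 (1.09), SESN2 (0.844), HERPUD1 (0.748) and CLK4 (0.724), and for HOXC13 (0.533), HOXC13-AS (0.722), GAS6-AS2 (0.968) and TAF7 (0.49). For NR1D1 and EGR1 the arms differed mainly in the level without heat. The mean of NR1D1 was 32.2 CPM in Ctrl siLonp1 and 19.3 in Ctrl scramble, beside 23.06 in HS siLonp1 and 25.3 in HS scramble. That of EGR1 was 70.04 and 48.5 CPM without heat, beside 1348 and 1412 CPM with heat. The cause of the differences between the arms was not tested.

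Some of these calls depend on single libraries or on the processing, with adjusted p-values above 0.05 when 1 of the 12 Ctrl and HS libraries was left out. The call was lost without any single one of 11 libraries for CCDC71 (adjusted p 0.0586 to 0.127), MAT2A (0.0627 to 0.0958), ID1 (0.0526 to 0.127) and SP5 (0.0582 to 0.175), HS scramble replicate 3 being the other. It was lost without any of 10 libraries for HOXA11 (0.0563 to 0.128), and without any of 9 for EGR1 (0.0558 to 0.131), CCNF (0.0745 to 0.111) and MYBBP1A (0.0586 to 0.119). It was lost without any of 8 for NR1D1 (0.0521 to 0.0752) and HOXC13 (0.053 to 0.105), of 6 for HOXC13-AS (0.0798 to 0.0978) and of 5 for GAS6-AS2 (0.0517 to 0.0838). For LFNG it was lost without any of 4 libraries (0.0542 to 0.0623), for GEMIN4 of 3 (0.0591 to 0.065), and for TAF7 without HS scramble replicate 1 (0.0504). With all libraries kept, calls were also lost with RLE scaling for CCDC71 (0.0536), ID1 (0.0507) and SP5 (0.0573), and with CPM above 1 asked of all 6 libraries for CCDC71 (0.0514), ID1 (0.0507) and SP5 (0.0554). With the replicate number as a block they were lost for MAT2A (0.0606), ID1 (0.0584), SP5 (0.0613), CCNF (0.0538) and MYBBP1A (0.052).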

How the results depend on the processing

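The 117 named genes besides LONP1 that passed the test of the HS effect in siLonp1 gave 2573 values under the alternatives run. Of these, 2553 stayed past the FDR limit of the setting in the same direction. The other 20 did not pass it (NR1D1, KRT18, KRT8, RPLP1 and UQCRB), and 0 reversed. Most of these genes were named for large changes in the same libraries, which made a reversal unlikely from the start. A stricter FDR limit or a scramble library left out also keeps the 6 libraries compared, so this tally is a description only. Of 620 interaction values of 31 named genes, taken because they passed the interaction with all libraries, 142 did not pass and 0 reversed. The call was lost without some library for 15 genes (named with their values in the part on differences between the arms).

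Of the named lowered genes SOX4 also crossed the fold limit, at -0.994 with CPM above 1 asked of all 6 libraries and from -0.965 with 1 library left out. Counts moved with the limits. Without a filter on low counts there were 210 lowered and 658 raised genes in siLonp1, 122 lowered in scramble, 66 lowered in both arms, 357 with a lower and 140 with a higher HS effect in siLonp1, and 65 lowered genes past the interaction. With a fold change above 1.5 the counts were 563 lowered, 917 raised, 228 lowered in scramble, 184 in both arms and 86 lowered past the interaction, and with no fold limit 2761, 2546, 2178, 1642 and 133. These settings test more genes or set a lower limit by construction.

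The interaction also moved with the libraries and the tool: 565 lower and 146 higher with only the 12 Ctrl and HS libraries, 304 and 123 with DESeq2, 55 and 25 at FDR 0.01, and 69, 53 and 21 lowered genes past it in these settings. With 1 library left out, the lower count ran from 67 (without HS scramble replicate 1) to 373 (without HS scramble replicate 3), the higher count from 30 to 163 (the same libraries), and lowered genes past the interaction from 21 (without Ctrl siLonp1 replicate 1) to 47 (without HS scramble replicate 3). The cause was not tested.

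Lowered genes in siLonp1 numbered 130 to 152 with 1 library left out. Between the Ctrl and HS libraries compared, correlations were -0.143, 0.222 and -0.209 for the same replicate number. For different numbers they ran from -0.352 to 0.401. With 3 libraries per group these values cannot decide whether the numbers pair the samples. Pairing across the siRNA arms was not examined. With a replicate block there were 134 lowered and 374 raised genes, and 125 with a lower and 56 with a higher HS effect in siLonp1. Depth limits genes near 1 CPM, which stands for about 40 counts.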
